A study of Mus musculus with 4 samples.

Results

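Translation initiation and elongation factors are the proteins that bring ribosomes to mRNAs and move them along the coding sequence. Their genes were examined here in sorted mouse leukemia cells of 2 groups, labelled Scr and miR-99 KD. Members were taken by name from the gene count tables: protein-coding genes whose mouse symbol begins with Eif and a digit from 1 to 6, or with Eef and the digit 1 or 2. The Eif2ak kinases, the Eif4ebp repressors and -ps pseudogenes were left out. This gave 60 of the 45232 genes listed, 48 of them initiation factors and 12 elongation factors or their modifying enzymes. The rule itself uses names and no measured value.

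RNA was sequenced from leukemic granulocyte-macrophage progenitors (L-GMPs), the leukemic cells that resemble normal progenitors of granulocytes and monocytes. All 4 libraries came from secondary recipient mice with acute myeloid leukemia driven by MLL-AF9, a fusion oncoprotein that Scr and miR-99 KD cells carried alike. Cells were taken when the mice died, through a gate for CD34, CD16/32, c-Kit, Sca-1 and the fluorescent markers GFP and tdTom, with 2 mice and 2 libraries in each group. The comparison asks how the level of miR-99, a microRNA family, bears on gene expression in these cells. Neither Scr nor KD is spelled out in the labels, which give no strain, age or sex of the mice and no count of primary leukemias behind the recipients.

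Initiation starts when eIF4F binds the mRNA cap and a small ribosomal subunit, loaded with eIF3, eIF1, eIF1A, eIF5 and the eIF2 complex that carries the initiator tRNA, scans to the start codon. eIF2 is recharged with GTP by eIF2B, and eIF5B joins the large subunit. During elongation eEF1A delivers aminoacyl-tRNAs, eEF1B recharges eEF1A, eEF2 moves the ribosome by one codon, and eIF5A helps at sequences that ribosomes join slowly. Many of these mRNAs belong to the class with a terminal oligopyrimidine (TOP) tract at the 5′ end, whose translation is under the control of the mTOR kinase.

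The mature microRNAs of the miR-99 family are shown because their seed, bases 2 to 8 in capitals, decides which mRNAs they pair with best. The RefSeq sequences (GRCm38.p6) share the seed ACCCGUA and come from chr16:77598940-77598961 (+), chr17:17830194-17830215 (+) and chr9:41531437-41531458 (+), in the order printed.
mmu-miR-99a-5p: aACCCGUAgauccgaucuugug
mmu-miR-99b-5p: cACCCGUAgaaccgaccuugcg
mmu-miR-100-5p: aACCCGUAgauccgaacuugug
For every gene, the 3′ UTR annotated as longest was searched on the transcript strand for TACGGGT, the match to bases 2 to 8, or for ACGGGTA, the match to bases 2 to 7 followed by A; the heptamers differ by a shift of 1 base. None of the 60 members held a match, beside 291 of 12368 tested genes with an annotated 3′ UTR (2.35%). This says only that these letters are not in the annotated 3′ UTRs.

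The first bases of the transcripts are shown for members whose start bears on the TOP class. Each RefSeq window (GRCm38.p6) runs from 10 bases before the annotated start to 20 after it, and capitals mark the longest unbroken run of C and T. Eif3f (chr7:108934405-108934434, +), Eef1a1 (chr9:78481705-78481734, −), Eif4b (chr15:102073763-102073792, +), Eef2 (chr10:81176621-81176650, +) and Eef1b2 (chr1:63176821-63176850, +) were on the TOP list. Eif2s3x (chrX:94212632-94212661, −) and Eif2b5 (chr16:20498807-20498836, +) were not on it and are shown because they hold runs among the longest.
Eif3f: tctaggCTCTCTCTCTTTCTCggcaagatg
Eef1a1: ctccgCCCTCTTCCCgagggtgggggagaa
Eif4b: tcccgtcggacgccgcgccaCCCCCTCgcg
Eef2: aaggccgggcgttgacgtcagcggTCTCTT
Eef1b2: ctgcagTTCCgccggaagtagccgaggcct
Eif2s3x: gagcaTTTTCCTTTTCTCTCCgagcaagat
Eif2b5: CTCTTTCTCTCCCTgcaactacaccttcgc
A run of at least 7 bases was present in 14 of the 46 members with a window (30.4%) and in 2220 of 10424 tested genes with one (21.3%). Of the 10 members on the TOP list, 6 had a window and 3 of these held such a run. Annotated starts can lie some bases from the start a cell uses, so a short run says nothing about the class of the mRNA.

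Counts assigned to genes came to 38458519 to 42674407 per library. The miR-99 hairpin genes Mir99a, Mir99b and Mir100 had 0 counts in every library, so the reduction of miR-99 could not be checked on them, and the host transcript Mir99ahg had 59, 3, 1 and 2 counts in the order Scr 1, Scr 2, miR-99 KD 1 and miR-99 KD 2. More genes were detected in Scr 1, at 28573, than in the rest, at 21372 to 24038. Olfactory receptor genes, which blood cells are not known to use, summed to 51.9 CPM (gene counts scaled to a common library total) in Scr 1 and to 4.78 to 15.0 CPM in the other libraries. Ly6a, the gene of the gate antigen Sca-1, had 4, 8, 5 and 4 counts, while Kit, Cd34, Fcgr3 and Fcgr2b passed the filter. The labels write the gate as Sca-1+, so a marker given as positive was nearly absent as RNA. These counts cannot settle the sign of the gate. Genes of granulocyte maturation moved with the groups. Their summed level over 15 of 15 genes was 6110, 4524, 11694 and 25030 CPM in the same order, and the share of counts from mitochondrial genes was 0.650%, 0.637%, 0.853% and 1.16%. The part of either in the values below was not tested. In bulk RNA, fewer cells of a type and less RNA per cell cannot be told apart.

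The translation factor genes differed little between the groups. After the expression filter, 57 of the 60 members were tested, and edgeR's quasi-likelihood test called none of them at an adjusted p under 0.05. Over all 15591 genes tested it called 0%. DESeq2 called 208 genes (1.22%) and limma-voom called 0, and none of these calls was a member. At an unadjusted p under 0.05, edgeR gave 2 members with a higher value in miR-99 KD, Eif5a2 and Eef1a1, and 0 with a lower one, where all genes gave 2.66% higher and 5.23% lower. The log2 fold change of miR-99 KD over Scr was positive for 32 members and negative for 25, with a median of 0.05, beside −0.01 over all genes tested. It lay within 0.25 of 0 for 42 of the 57 members (73.7%) and for 45.1% of all genes. The median SD within groups, on the log2 scale, was also smaller for members, at 0.14 against 0.27 for all genes. Its part in these shares was not tested. Both miR-99 KD libraries lay above both Scr libraries for 15 members (26.3%), where all genes gave 18.9%, and below them for 12 (21.1%), where all genes gave 25.3%. The p-values measure the spread between 2 mice per group.

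**Figure D1:**
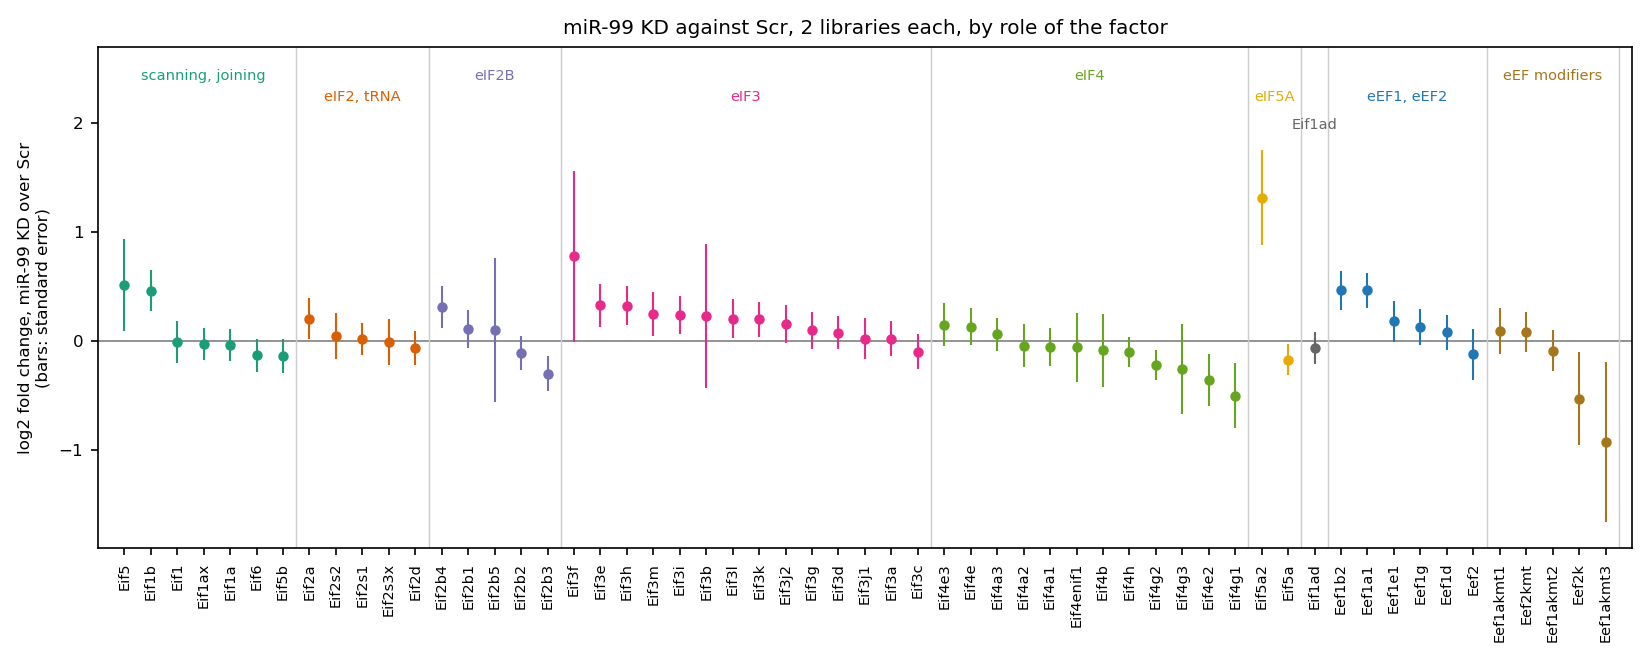
Log2 fold change of miR-99 KD over Scr for the 57 members tested, in role groups and in falling order within a group, with bars of 1 standard error from edgeR's test. Most points lie within 0.25 of 0, Eif5a2 stands highest at 1.32, Eef1akmt3 lowest at −0.93, and no member passed an adjusted p of 0.05.

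Levels between genes were compared per length, as TPM (transcript abundance scaled to a common total), computed from the counts and the annotated exon length. Eef1a1 and Eif5a had the highest means, 3041 ± 373 and 2874 ± 421 TPM (SD over all 4 libraries), and their order differed between the groups. Eef1a1 was at 2615, 2849, 3283 and 3416 TPM and Eif5a at 3139, 3274, 2741 and 2343 TPM in the order Scr 1, Scr 2, miR-99 KD 1 and miR-99 KD 2, so that Eif5a was higher in both Scr libraries and Eef1a1 in both miR-99 KD libraries. Eef1a1 shares 40.4% of its transcript sequence, counted in stretches of 50 bases, with other annotated transcripts, and Eif5a 3.77%. Alignments that were not unique stayed out of the counts, so the order of these 2 genes is uncertain. Eef2 followed with 968 ± 205 TPM and Eif4g2 with 770 ± 123, and Eef2 was above Eif4g2 in each of the 4 libraries. The exon length used joins all annotated transcripts of a gene, 3324 bases for Eef2 and 10166 for Eif4g2. Their longest transcripts have 3089 and 7995 bases, and the order of these genes can change with the length used. At the other end Eif2s3x, the X-linked gene of the γ subunit of eIF2, had a mean of 8.73 TPM, Eif5a2 2.19 and Eef1akmt3 0.494. The members of the eIF2 complex were thus far from equal in mRNA: the ratio of Eif2s1 to Eif2s3x was 19.4, 17.8, 17.3 and 20.7 in the same order. Eif2s3x shares 34.6% of its transcript sequence, counted in stretches of 50 bases, with other annotated transcripts. Its processed pseudogene Gm2223 held 1556, 1682, 1837 and 1713 counts against 413, 421, 436 and 412 for Eif2s3x itself, so the level of Eif2s3x is uncertain.

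**Figure D2:**
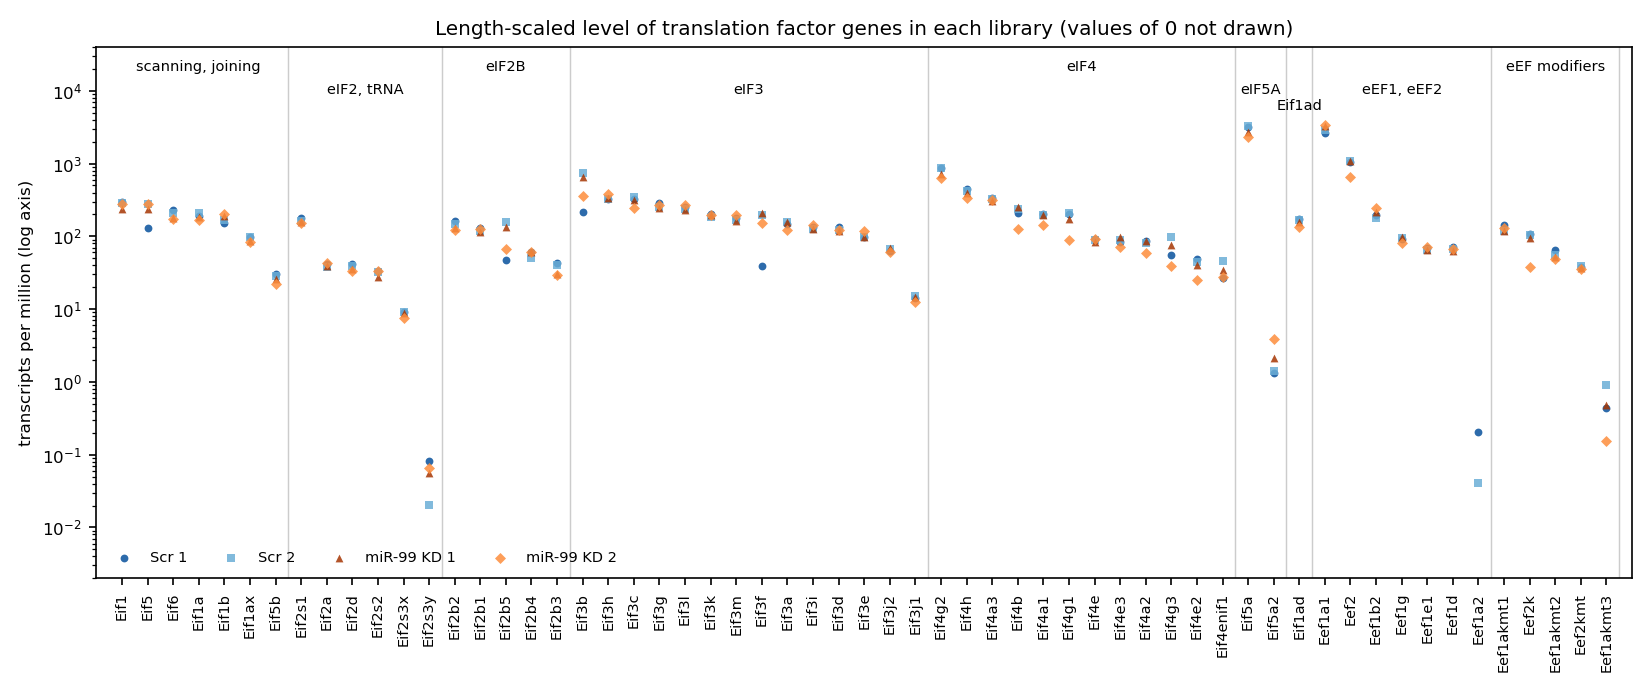
Length-scaled level (TPM, log axis) of each member in each of the 4 libraries, by role group and in falling order of mean; values of 0 are not drawn. The libraries lie close together for most genes, and the levels span from about 3041 TPM for Eef1a1 to under 1 TPM for Eef1akmt3, Eef1a2 and Eif2s3y.

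The 3 members that did not pass the filter each have a close relative among the members. Eif2s3y, the Y-linked copy of Eif2s3x, had 4, 1, 3 and 4 counts, while Xist, the RNA that coats the inactive X, had 8034 to 14929 counts. Eef1a2, the eEF1A of muscle and neurons, had 5, 1, 0 and 0 counts. Eif4e1b, an eIF4E form of oocytes, had 0 in every library, which allows a level of up to 0.0703 to 0.0780 CPM if a count of 0 allows 3 counts. These floors cover counting error only.

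Among the factors of scanning and subunit joining, 2 of 7 values were positive and 5 negative, with a median of −0.03. Values per library are given throughout as CPM scaled with the library factors of the test, in the order Scr 1, Scr 2, miR-99 KD 1 and miR-99 KD 2. Eif1b, a second gene for the start-codon fidelity factor eIF1, was at 49.2, 55.3, 65.7 and 78.3 CPM. The groups did not overlap, with the miR-99 KD libraries higher (log2 fold change 0.46 ± 0.19 SE, edgeR adjusted p = 0.655). Its exons overlap those of the antisense gene D830035M03Rik, and without a stated strand setting the reads of the pair cannot be told apart. Eif1, the main gene for the same factor, was at 177, 179, 153 and 202 CPM, with the miR-99 KD libraries on either side of Scr (−0.0049 ± 0.19). The length-scaled ratio of Eif1 to Eif1b was 1.93, 1.74, 1.25 and 1.38 in that order. Eif1a and Eif1ax, an autosomal and an X-linked gene for eIF1A, which works beside eIF1, had log2 fold changes of −0.03 ± 0.15 and −0.03 ± 0.15. Their libraries overlapped, at 227, 257, 235 and 238 CPM for Eif1a and 147, 152, 143 and 151 CPM for Eif1ax.

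Eif5, the GTPase-activating protein of eIF2, was at 255, 562, 506 and 660 CPM. Scr 1 alone was low and the other 3 libraries lay together, so that the log2 fold change of 0.51 ± 0.42 (edgeR adjusted p = 0.755) came to 0.13 without Scr 1 and 1.25 without Scr 2. Eif5b, which joins the ribosomal subunits, and Eif6, which keeps the large subunit free, were both lower in both miR-99 KD libraries, by small amounts (−0.14 ± 0.16 and −0.13 ± 0.15). Exons of Eif5b overlap those of Rev1 on the other strand.

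The genes grouped with eIF2, Eif2a and Eif2d included, were level between Scr and miR-99 KD. Of 5 tested, 3 values were positive and 2 negative, between −0.06 and 0.21, with a median of 0.02. Eif2s1, the α subunit whose phosphorylation halts initiation under stress, was at 252, 240, 237 and 262 CPM (0.02 ± 0.15). Eif2s3x was at 9.76 to 10.5 CPM in the 4 libraries (−0.0076 ± 0.21). Eif2a and Eif2d, factors that can bring initiator tRNA without eIF2, pointed in opposite directions. Eif2a was at 73.0, 68.4, 73.1 and 90.2 CPM (0.21 ± 0.19, edgeR adjusted p = 0.771), and its higher value came from miR-99 KD 2, while Eif2d was at 88.1, 85.5, 80.9 and 85.03 CPM (−0.06 ± 0.15).

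The exchange factor eIF2B, which has 5 subunits, was not uniform. Eif2b3, the γ subunit of its catalytic part, was at 79.7, 76.3, 61.7 and 65.1 CPM. The miR-99 KD libraries were both below Scr, and the gap between the groups was wider than the gap within either (−0.30 ± 0.16, edgeR adjusted p = 0.690). Leaving out any 1 library gave −0.31 to −0.19. Eif2b4, the δ subunit of its regulatory core, was at 44.6, 37.9, 49.0 and 53.6 CPM, higher in both miR-99 KD libraries (0.31 ± 0.19, edgeR adjusted p = 0.705). Exons of Eif2b4 overlap those of Snx17 on the other strand. Eif2b2, the β subunit, had the highest mean TPM of the 5. By TPM, Eif2b5 was above Eif2b2 in Scr 2 and miR-99 KD 1, and Eif2b1 was above it in miR-99 KD 2. Eif2b2 was at 86.6, 81.3, 76.9 and 78.8 CPM (−0.11 ± 0.16). Eif2b5, the ε subunit that carries the exchange activity, was at 35.5, 120, 107 and 59.5 CPM, low in Scr 1 and in miR-99 KD 2. Its log2 fold change of 0.10 ± 0.66 came to −0.47 without Scr 1 and 1.28 without Scr 2, so its direction depended on the library left out.

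The 14 genes of eIF3, the largest initiation factor and the scaffold on the small subunit, mostly had higher values in miR-99 KD, none of them past the test. Of these, 13 values were positive and 1, that of Eif3c, negative (−0.09 ± 0.16), with a median of 0.20, where 49.0% of all genes tested were positive. Both miR-99 KD libraries were above both Scr libraries for 7 of them (18.9% over all genes) and below for none (25.3% over all genes). The smallest adjusted p of an eIF3 gene in edgeR was 0.693. Leaving out Scr 1, Scr 2, miR-99 KD 1 or miR-99 KD 2 left 12, 14, 11 and 13 of the 14 positive, with medians of 0.22, 0.25, 0.32 and 0.12. Eif3h, an outer subunit, was at 150, 153, 168 and 211 CPM (0.33 ± 0.18, edgeR adjusted p = 0.693). Eif3e, another outer subunit, was at 187, 194, 205 and 273 CPM (0.33 ± 0.20, edgeR adjusted p = 0.702). In both genes miR-99 KD 1 lay just above Scr and miR-99 KD 2 well above, and without miR-99 KD 2 the values came to 0.18 and 0.14. Eif3i, Eif3k, Eif3l, Eif3m and Eif3j2 were also higher in both miR-99 KD libraries, with log2 fold changes of 0.16 to 0.25. Without miR-99 KD 2 these came to 0.12, 0.13, 0.05, 0.05 and 0.22 in the order named. Eif3a, the core subunit on which the complex is built, was level between the groups (0.02 ± 0.16), as was Eif3j1 (0.02 ± 0.19). Eif3j1 and Eif3j2 are near-identical, with 91.8% of the Eif3j2 sequence found in other annotated transcripts, so their separate values are uncertain.

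Eif3f and Eif3b, subunits of different modules of eIF3, varied most between libraries. Eif3f was at 32.4, 167, 189 and 154 CPM, with Scr 1 below every other library by at least 2.24 on the log2 scale. Its log2 fold change of 0.78 ± 0.78 (edgeR adjusted p = 0.788) came to 0.10 without Scr 1 and to 2.45 without Scr 2. Eif3b had the highest mean TPM of the eIF3 genes but did not lead in every library. Eif3h was above it in Scr 1 (327 against 214 TPM) and in miR-99 KD 2 (382 against 353 TPM). Eif3b was at 204, 723, 680 and 405 CPM, again with Scr 1 lowest. Its log2 fold change of 0.23 ± 0.66 came to −0.35 without Scr 1 and 1.46 without Scr 2. Eif3f, Eif3b, Eif5 and Eif2b5 were the 4 members lowest in Scr 1 by a wide margin, named after their values were seen, and they were the 4 with an unadjusted p under 0.05 in edgeR when Scr 2 was left out, where all genes gave 7.02% higher. A gap of at least 2-fold below every other library was seen in Scr 1 for 1 of 57 members (1.75%) and for 5.12% of all genes. Gspt1, the termination factor eRF3a and no member, had the same shape at 51.9, 231, 214 and 135 CPM.

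**Figure D3:**
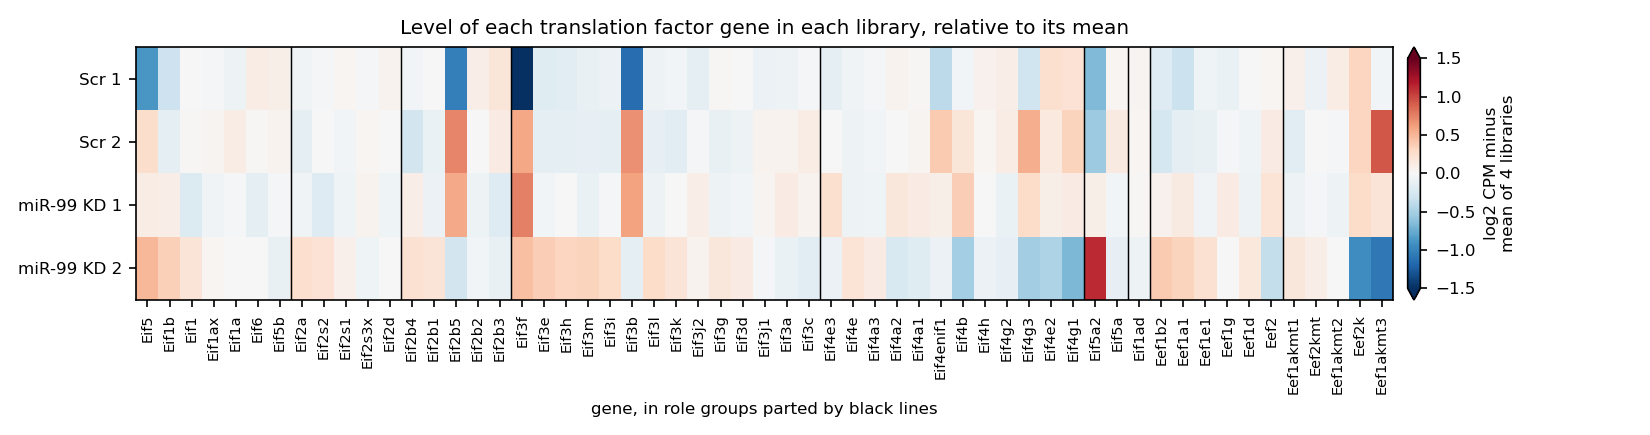
Log2 CPM of each of the 57 tested members in each library, as the difference from that gene's mean over the 4 libraries; black lines part the role groups. Scr 1 is low for Eif5, Eif2b5, Eif3f and Eif3b, and miR-99 KD 2 is low for Eef2k, Eef1akmt3, Eif4g1 and Eif4b and high for Eif5a2.

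Members with Eif4 symbols, among them those for cap binding, unwinding and the scaffold between cap and ribosome, mostly had lower values in miR-99 KD. Again none passed the test. Of 12 tested, 3 values were positive and 9 negative, with a median of −0.07. In miR-99 KD both libraries were below Scr for 4 genes, Eif4g1, Eif4g2, Eif4e2 and Eif4h, a share of 33.3% near the 25.3% over all genes, and above for none. The balance depended on single libraries: leaving out Scr 1, Scr 2, miR-99 KD 1 or miR-99 KD 2 left 7, 5, 9 and 4 of the 12 negative.

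Eif4g2 is a scaffold that lacks the cap-binding part of its relatives. It was at 2554, 2576, 2227 and 2182 CPM, a mean of 2565 ± 15.0 in Scr and 2205 ± 31.8 in miR-99 KD (SD, n = 2 each). Libraries of a group differed by far less than the groups did (−0.22 ± 0.13, edgeR adjusted p = 0.708), and leaving out any 1 library gave −0.17 to −0.15. Eif4g1, the main scaffold of eIF4F, was at 415, 452, 389 and 225 CPM. Its log2 fold change of −0.50 ± 0.30 (edgeR adjusted p = 0.705) came to −0.12 without miR-99 KD 2, the library that was low. Eif4g3, the third scaffold, was at 174, 314, 260 and 149 CPM, with the groups overlapping (−0.25 ± 0.42). The length-scaled ratio of Eif4g2 to Eif4g1 was 4.42, 4.09 and 4.11 in the first 3 libraries and 6.97 in miR-99 KD 2.

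Of the cap-binding proteins, Eif4e was at 160, 158, 157 and 191 CPM (0.13 ± 0.17) and Eif4e3 at 59.1, 65.9, 77.3 and 61.6 CPM (0.15 ± 0.20). In both genes the groups overlapped. Eif4e2, which binds caps without recruiting ribosomes, was at 104, 97.7, 93.8 and 64.0 CPM, lower in both miR-99 KD libraries and lowest in miR-99 KD 2 (−0.36 ± 0.24, edgeR adjusted p = 0.731). Without miR-99 KD 2 its value came to −0.07. The helicases Eif4a1, at 248, 252, 266 and 215 CPM, and Eif4a2, at 133, 128, 144 and 109 CPM, were level between the groups (−0.05 ± 0.17 and −0.04 ± 0.20). Their length-scaled ratio held between 2.28 and 2.42 in the 4 libraries. Eif4a1 shares 28.4% of its sequence with other transcripts, and the pseudogene Eif4a-ps4 held 17265 to 20748 counts against 9055 to 11014 for Eif4a1, so the Eif4a1 level is uncertain. Eif4b, the helicase cofactor, was at 266, 311, 353 and 191 CPM, with miR-99 KD 1 highest and miR-99 KD 2 lowest.

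The 2 eIF5A genes differed widely in level, and Eif5a2 had the highest fold change of any member. Eif5a2, a second gene for eIF5A, had 79, 85, 135 and 285 counts, or 1.92, 2.09, 3.26 and 6.75 CPM, means of 2.01 ± 0.123 and 5.01 ± 2.47 (SD, n = 2 each). The groups did not overlap. The log2 fold change of 1.32 ± 0.43, or 2.49-fold, had the smallest p of any member, 0.0341 in edgeR, with an adjusted p of 0.611. Without miR-99 KD 2, which was more than 2-fold above every other library, it came to 0.73, and without miR-99 KD 1 to 1.81. Its adjusted p ran from 0.307 to 0.962 over all alternatives. The granulocyte genes, too, were highest in miR-99 KD 2 and next highest in miR-99 KD 1, and their part in the Eif5a2 values was not tested. Eif5a itself, the abundant gene, was at 2124, 2287, 2015 and 1910 CPM, below both Scr libraries in both miR-99 KD libraries (−0.17 ± 0.14, edgeR adjusted p = 0.755). The length-scaled ratio of Eif5a to Eif5a2 was 2339, 2309, 1305 and 598, so Eif5a made up nearly all eIF5A mRNA in every library. Eif1ad, which carries an eIF1A-like domain and belongs to no group above, had a value of −0.07 ± 0.15.

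Elongation factors were described apart from the initiation factors. All initiation factors together had a median of 0.02, with 25 of 46 values positive, and held 1.25%, 1.27%, 1.20% and 1.18% of all gene counts in the 4 libraries. The elongation factors and their modifiers had a median of 0.09, with 7 of 11 positive, and held 0.382%, 0.374%, 0.427% and 0.435%. Eef1a1 was the largest part of that share, with 76342, 84721, 104671 and 123228 counts. Eef2, the next largest, had 40502, 42845, 46338 and 31867 counts. Neither group of factors held a gene past the test.

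Among the genes grouped with eEF1 and eEF2, Eef1e1 included, 5 of 6 tested values were positive, with a median of 0.16. Both miR-99 KD libraries were above both Scr libraries for 4 of 6, where all genes gave 18.9%. Eef1a1, which delivers aminoacyl-tRNA to the ribosome, was at 1856, 2088, 2531 and 2920.5 CPM, means of 1972 ± 164 in Scr and 2726 ± 275 in miR-99 KD (SD, n = 2 each). The groups did not overlap, and the log2 fold change was 0.47 ± 0.16, or 1.38-fold (edgeR adjusted p = 0.621). Leaving out any 1 library gave 0.39 to 0.63, and the adjusted p ran from 0.307 to 0.998 over all alternatives. Eef1a1 shares 40.4% of its sequence with other annotated transcripts. The pseudogene with the most, Gm13456, had 9880, 11279, 13914 and 16101 counts, in the same order of libraries as Eef1a1 itself.

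Eef1b2, the exchange factor subunit that recharges eEF1A with GTP, was at 140, 133, 167 and 210.0 CPM. It too did not overlap between groups, with the same log2 fold change as Eef1a1 (0.47 ± 0.18, edgeR adjusted p = 0.634) and a range of 0.33 to 0.68 with 1 library left out. Eef1g, at 68.2, 71.5, 79.8 and 73.3 CPM, and Eef1e1, at 65.1, 62.7, 65.4 and 79.5 CPM, were above Scr in both miR-99 KD libraries by small margins (0.13 ± 0.16 and 0.18 ± 0.19). Eef1g is a structural subunit of eEF1B, and Eef1e1 a scaffold protein of the tRNA synthetase complex. Eef1d, the other exchange subunit, overlapped between groups (0.08 ± 0.16). Eef2, which moves the ribosome along, did not go with eEF1A. It was at 985, 1056, 1121 and 755 CPM, with miR-99 KD 1 highest and miR-99 KD 2 lowest, and its log2 fold change of −0.12 ± 0.24 came to 0.17 without miR-99 KD 2 and −0.37 without miR-99 KD 1. The length-scaled ratio of Eef1a1 to Eef2 was 2.51, 2.64, 3.01 and 5.16.

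Of the enzymes that modify elongation factors, 2 of 5 values were positive and 3 negative, with a median of −0.09 that came to 0.059 without Scr 1 and 0.0098 without miR-99 KD 1. Eef2k, the kinase that shuts off eEF2, was at 228, 227, 220 and 95.1 CPM. The first 3 libraries were level and miR-99 KD 2 was more than 2-fold below them, so that the log2 fold change of −0.53 ± 0.43 (edgeR adjusted p = 0.754) came to −0.01 without miR-99 KD 2. Eef1akmt3, a lysine methyltransferase of eEF1A, had only 14, 29, 17 and 6 counts, and its value of −0.93 ± 0.73 (edgeR adjusted p = 0.754) was that of a gene at the edge of detection. Eef1akmt1, another methyltransferase of eEF1A and the most abundant modifier per length, was at 39.1, 32.9, 35.0 and 41.7 CPM (0.09 ± 0.21), with the groups overlapping.

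Differences between libraries of a group went with transcript length across genes. Spearman's rho between the longest annotated transcript and the log2 difference of miR-99 KD 2 from miR-99 KD 1 was −0.32 over the 57 members and −0.32 over 15519 tested genes with a length, as a description across genes that share the same 2 libraries. For transcripts under 2000 bases the median of that difference was 0.21 over 15 members and 0.21 over all genes. From 2000 to 4000 bases it was −0.08 over 29 members and −0.07 over all genes, and from 4000 bases on it was −0.03 over 13 members and −0.29 over all genes. Eif4g1 (5638 bases), Eif4g3 (8134 bases) and Eef2k (6580 bases) were low in miR-99 KD 2, and Eif4g2, of 7995 bases, was not. Of the other members from 4000 bases on, Eif5a2, Eif3e, Eif2s2, Eif5, Eif4e and Eif1ax were higher in miR-99 KD 2 than in miR-99 KD 1. Eif5b, Eif3a and Eif3j1 were lower. For Scr 1 against Scr 2, rho was −0.33 over the members and −0.20 over all genes. The group difference itself had a rho of −0.34 with length over the members and −0.18 over all genes. Below 2000 bases the median of the group difference was 0.10 over the members and 0.13 over all genes. Of the eIF3 and eEF1 genes of that length, Eif3g (0.10) and Eef1g (0.13) were near that size. Eif3h, Eif3k and Eif3m lay above it, at 0.33, 0.20 and 0.25. Eef1a1 and Eef1b2, of 1794 and 1939 bases, are also among the short ones and lay higher still, at 0.47 each. The part of length in these values was not tested.

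**Figure D4:**
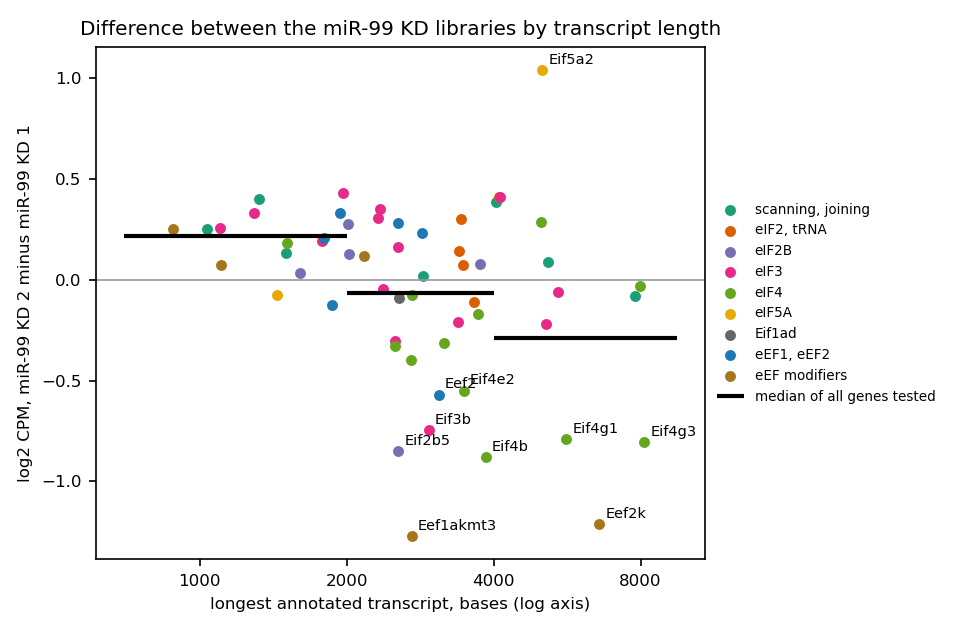
Log2 CPM of miR-99 KD 2 minus miR-99 KD 1 against the longest annotated transcript (bases, log axis) for the 57 tested members, coloured by role, with black bars for the median of all genes tested in each length class. Short members lie mostly above 0 near the bar at 0.21. Eef2k, Eef1akmt3, Eif4b, Eif2b5, Eif4g3, Eif4g1, Eif3b, Eef2 and Eif4e2 lie low, and Eif5a2 lies high at 1.04.

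Leaving out miR-99 KD 1, so that miR-99 KD 2 stood alone for its group, gave the most members at an unadjusted p under 0.05. These were 9 higher (Eif1b, Eif3h, Eif3e, Eif3m, Eif3i, Eif3l, Eef1b2, Eef1a1 and Eif5a2) and 4 lower (Eif4e2, Eef2, Eef2k and Eif4g1), where all genes gave 6.33% higher and 8.96% lower in edgeR. Without miR-99 KD 2 the only such member was Eef1a1, where all genes gave 1.42% higher, and without Scr 1 it was Eif5a2, where all genes gave 3.13% higher. In the fit without Scr 1 edgeR called 294 genes (1.85%) at an adjusted p under 0.05, none of them a member.

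On the TOP list 9 of 10 genes were tested, 7 positive and 2 negative, with a median of 0.33 that came to 0.18 without Scr 1 and 0.54 without miR-99 KD 1. In miR-99 KD both libraries were above Scr for Eef1a1, Eef1b2, Eef1g, Eif3e and Eif3h, 55.6% of the 9 where all genes gave 18.9%, and below for none. The list was chosen with earlier results of these data known. These values therefore describe the genes on it and not the TOP class. The summed level of the list was 3815, 4299, 4939 and 4936 CPM, with Eef1a1 the largest part. The 2 negative genes, Eef2 and Eif4b, were those with miR-99 KD 1 highest and miR-99 KD 2 lowest.

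The regulators of these factors that are no members did not pass the test either. Of 25 genes of translational control, 24 were tested, 11 positive and 13 negative, with a median of −0.03 and none at an unadjusted p under 0.05 in edgeR. Pdcd4, an inhibitor of eIF4A, had the smallest p. It was at 99.8, 144, 192 and 151 CPM (0.50 ± 0.26, edgeR adjusted p = 0.684). Eif2ak2, the eIF2 kinase that senses double-stranded RNA, was at 33.4, 32.7, 29.7 and 14.6 CPM (−0.58 ± 0.39, edgeR adjusted p = 0.728), low in miR-99 KD 2 alone. Eif4ebp1, the mTOR-controlled repressor of eIF4E, was at 111, 117, 89.1 and 116 CPM.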

How the data were processed

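Values deposited by the authors are unscaled counts of reads for each Ensembl gene identifier: whole numbers whose totals differ between libraries. The submitters' processing notes name the build mm9 and the tools HTSeq, DESeq2, STAR and Picard, without versions or roles. Per the labels' protocols, RNA was extracted with Trizol LS and amplified with SMARTer, a template-switching method. Sources used here do not give the strand setting or the annotation release. HTSeq's categories that name no gene held 43.7% to 49.7% of entries and stayed out of library sizes and tests. Alignments that were not unique, 19.3% to 23.6%, are among them, so members with near-identical copies lose reads. Of the 60 members, 17 share over 10% of their sequence with other annotated transcripts and 15 overlap an exon on the other strand.

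Counts were tested with edgeR 4.0.16 (R 4.3.3), quasi-likelihood, two-sided, miR-99 KD against Scr, with TMM factors of 1.07, 0.970, 0.969 and 0.993, the default filter (minimum count 10) and Benjamini-Hochberg adjustment over 15591 genes, threshold 0.05. The common biological variation (BCV) came to 0.320, on 2 residual degrees of freedom. CPM values are counts scaled to the TMM-adjusted library size. The summed olfactory receptor level and the floors use unscaled totals. The median log2 fold change over all genes was −0.01, and under DESeq2 size factors 0.03, and under upper-quartile ones −0.03. Alternatives were these factors, no filter, a stricter filter (50 counts in 2 libraries), DESeq2 1.42.0, limma-voom (limma 3.58.1), leaving out each library, and a replicate block. The fit was tested on simulated data.

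Symbols were found for 44585 identifiers. Lengths, 3′ UTRs and overlaps come from GENCODE M21 (GRCm38), looked up by identifier, and none was converted from mm9. Sequences come from RefSeq (GRCm38.p6).

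Named genes were, per role, the 2 smallest p and the highest TPM, every unadjusted p under 0.05, and the paralog sets, and from other lists the 2 smallest p. Others are named for a count or as chosen after their values were seen. The members and lists were chosen with earlier results of these data known.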

Additional observations from a re-analysis of the deposited data

How the results depend on the processing

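No member was called at an adjusted p under 0.05 under any alternative, while the number of genes called over the whole table went from 0 to 23 with upper-quartile factors, 9 with no filter on low counts, 208 in DESeq2, and 0 to 294 with 1 library left out, the highest without Scr 1. The causes were not tested. Whether replicate numbers pair the libraries could not be settled. Deviations of Scr 1 and miR-99 KD 1 from their group means had a correlation of −0.43 over genes. With 2 libraries per group the other pair only mirrors this value, so it cannot decide the question. A replicate block gave 0 genes called, and the crossed pairing, chosen after seeing the data, gave 28. With 1 library left out, the medians ran from 0.20 to 0.31 for the eEF1 complex and eEF2, from −0.020 to 0.15 for eIF2 and from −0.037 to 0.077 for scanning and subunit joining. A lone library of a group was then assumed to vary like the other group. The other medians moved by less than the spread between replicates.

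Of the 30 named members tested under 11 alternatives, 18 kept their direction in each and 12 did not, in 41 of 329 values. With DESeq2 size factors Eif1, Eif1a, Eif1ax and Eif2s3x came to 0.037, 0.0069, 0.014 and 0.031, with no filter to 0.053, 0.022, 0.031 and 0.049, and in DESeq2 to 0.052, 0.021, 0.029 and 0.046. With no filter Eif4a1 came to 9.5e-04 and Eif4a2 to 0.013, in DESeq2 Eif4a2 came to 0.0091, and with the stricter filter Eif2s1 came to −0.013. With 1 library left out, the ranges were −0.0089 to 0.29 for Eef1akmt1, −0.19 to 0.24 for Eif1, −0.049 to 0.11 for Eif1a, −0.037 to 0.077 for Eif1ax, −0.10 to 0.0090 for Eif2b2, −0.068 to 0.031 for Eif2d, −0.020 to 0.15 for Eif2s1, −0.0045 to 0.079 for Eif2s3x, −0.35 to 1.46 for Eif3b, −0.16 to 0.12 for Eif4a1, −0.20 to 0.17 for Eif4a2 and −0.66 to 0.28 for Eif4g3. Differences of the size seen for most members are within the spread that 2 mice per group leave.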

Other observations

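Factors of the neighbouring steps of translation, read from the same fit, also held no call. Of 6 termination and recycling genes, 4 values were positive and 2 negative, with a median of 0.13. Without Scr 1 these were 2 and 4, with a median of −0.026, and without Scr 2 the median was 0.36. Pelo, which rescues stalled ribosomes, was at 14.8, 12.3, 14.9 and 21.7 CPM (log2 fold change 0.44 ± 0.28 SE), and Abce1, which splits ribosomes after termination, at 344, 377, 401 and 446 CPM (0.23 ± 0.15). Both had an edgeR adjusted p near each other, 0.717 and 0.719. Of 9 genes for the enzymes that make the hypusine of eIF5A and the diphthamide of eEF2, 4 were positive and 5 negative, with a median of −0.05. Dohh, the last hypusine enzyme, was at 62.5, 61.3, 58.5 and 46.0 CPM, and Dph7, of the diphthamide pathway, at 35.9, 36.0, 29.2 and 30.6 CPM. Dph7 was lower in both miR-99 KD libraries (−0.27 ± 0.18, edgeR adjusted p = 0.729).

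Of 9 translation factors of mitochondria, 8 values were positive and 1 negative, with a median of 0.19. Without miR-99 KD 2 these were 5 and 4, with a median of 0.11, and without miR-99 KD 1 the median was 0.31. Mrrf, the mitochondrial ribosome recycling factor, was at 18.1, 15.6, 22.8 and 26.0 CPM, higher in both miR-99 KD libraries (0.53 ± 0.21, edgeR adjusted p = 0.639). Tufm, the mitochondrial counterpart of eEF1A, was at 15.5, 16.3, 18.8 and 20.2 CPM (0.30 ± 0.19, edgeR adjusted p = 0.722).

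Markers of other cells were read for the same libraries. Of the 15 granulocyte genes 14 had positive values, with a median of 1.38, and 11 had an unadjusted p under 0.05 with a higher value in edgeR (2.66% over all genes), among them Mpo (2.59) and Ltf (4.94). The summed monocyte and macrophage level over 6 genes was 1629, 1702, 1871 and 3045 CPM. Erythroid genes summed to 81.5, 110, 53.2 and 130 CPM, with 4 of 9 tested values positive, 5 negative and a median of −0.32 that came to 0.17 without miR-99 KD 1. The smallest p values were those of Car1 (−2.39) and Slc4a1 (−2.97). In the T and NK cell list, Cd3e, Cd3d, Cd3g, Cd8a and Ncr1 had at most 9 counts in any library. Stromal and endothelial genes were at 116 to 156 CPM, with Cdh5 at 2, 1, 0 and 0 counts. Of the leukemia genes, 3 of 4 were negative, among them Hoxa9 (−0.92) and Meis1 (−0.61). Of the 4 gate genes tested, Kit was at −0.67 and the other 3 were positive, with a list median of 0.18. With all 4 libraries, edgeR called none of these genes at an adjusted p under 0.05. DESeq2 called 7 granulocyte genes higher and 1 erythroid gene lower, and edgeR without Scr 1 called 10 granulocyte genes higher and 2 erythroid genes lower.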
